A study of Mus musculus with 4 samples.

Results

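The 49 nuclear genes of respiratory complex I were taken as the protein-coding mouse genes whose symbol starts with Nduf, out of 21887 protein-coding nuclear genes in the RefSeq annotation of GRCm38.p6, the assembly of mm10. They comprised 37 subunit genes, 8 assembly factor genes (Ndufaf), Ndufa4 and Ndufa4l2, which were counted apart, and 2 short copies named Ndufb4b and Ndufb4c. The subunits were 7 catalytic core subunits, 9 accessory subunits of the peripheral arm, 20 accessory subunits of the membrane arm and Ndufab1, which sits in both arms. The rule for members used the symbol alone, but it was chosen with earlier results of these data known.

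Complex I takes electrons from NADH, passes them along a chain of iron-sulfur clusters in its peripheral arm to ubiquinone, and pumps protons through its membrane arm across the inner mitochondrial membrane. Its core subunits carry out catalysis, accessory subunits surround and stabilise them, and assembly factors help to build the complex without staying in it. Heart muscle is rich in mitochondria and depends heavily on this enzyme. ATF4 is the main transcriptional effector of the integrated stress response and is best known for activating genes of amino acid supply and redox balance.

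ATF4-bound chromatin was pulled down on streptavidin beads from heart ventricle of mice aged 4 weeks and sequenced. The labels give 2 pull-down samples, titled ATF4-bio1 and ATF4-bio2 and called replicate 1 and replicate 2 here, and 2 input samples of the same tissue and age, which were not analysed here. No genotype, strain or treatment is given, the antibody field of both pull-down samples reads AAV without explanation, and the labels do not state whether endogenous or vector-borne ATF4 was pulled down. The labels do not say that the replicates came from separate animals, so the spread between them may be technical.

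The data were 3 lists of peaks. Replicate 1 had 78746 peaks and replicate 2 had 88812. A series-wide list of 41639 peaks is marked IDR in its deposited name, the usual term for a selection of peaks by their reproducibility across replicates. The lists hold no read counts, and the depth of each sample is unknown. A fold enrichment is the height of a peak over a background that is constant within each replicate, not a ratio to input. It ranged from 7.50 to 79.0 in the series-wide list, with lowest values of 5.50 and 5.32 in the replicate lists. At all 37 complex I genes with a series-wide peak at a gene end, the series-wide fold was the higher of both replicate folds. Of 5 cardiomyocyte marker genes (Tnnt2, Myh6, Myl2, Actc1 and Ttn), 5 had a gene-end peak in the series-wide list, meaning one that overlaps the 1 kb on either side of an end of the gene model, against 0 of 3 endothelial, 1 of 3 fibroblast (Dcn), 1 of 2 immune (Cd68) and 0 of 2 neuronal markers. The Cd68 peak lay outside the gene span, with its summit 3279 bp downstream of the start of Cd68. The share over all protein-coding genes was 34.9%, and the marker lists are too short to compare with it. In the lists of replicates 1 and 2 the counts were 5 and 5 cardiomyocyte, 2 and 2 endothelial, 2 and 3 fibroblast, 1 and 1 immune, and 1 and 1 neuronal markers. The tissue holds several cell types, and a peak cannot be assigned to one of them. A peak is not a measure of expression and alone is no proof that ATF4 was bound.

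The promoter sequences of 7 complex I genes are shown first, because the peaks described below lie on them. Each line gives the 250 bases before the annotated start, read 5′ to 3′ on the gene's own strand, from RefSeq on GRCm38.p6. Capitals mark matches to any of 7 motifs searched on both strands: TGATGCAA and its relaxed form TGATGNAA, the composite C/EBP-ATF element through which ATF4 dimers are known to act; TGACGTCA, the full cAMP response element; AAGGTCA, the site of estrogen-related receptors; CCGGAA, the ETS core; GCATGCGC, the core of the NRF1 site; and AAGATGGC, a YY1 element. Where capitals run on past the length of a motif, matches overlap. Ndufa9 had the highest fold of the family at a gene end and lies at chr6:126849145-126849394, minus strand.
Ndufa9: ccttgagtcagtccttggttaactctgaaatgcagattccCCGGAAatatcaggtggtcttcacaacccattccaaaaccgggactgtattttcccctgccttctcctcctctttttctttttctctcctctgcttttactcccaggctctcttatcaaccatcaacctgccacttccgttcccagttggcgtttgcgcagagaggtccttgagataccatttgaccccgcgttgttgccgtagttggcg
Ndufa10 (chr1:92473759-92474008, minus strand), Ndufa11 (chr17:56717512-56717761, plus strand) and Ndufb2 (chr6:39592315-39592564, plus strand) were the members with the cAMP response element.
Ndufa10: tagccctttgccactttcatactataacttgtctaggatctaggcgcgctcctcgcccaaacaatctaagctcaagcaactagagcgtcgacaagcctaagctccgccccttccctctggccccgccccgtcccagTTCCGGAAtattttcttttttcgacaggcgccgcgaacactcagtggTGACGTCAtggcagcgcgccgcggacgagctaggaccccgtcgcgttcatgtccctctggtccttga
Ndufa11: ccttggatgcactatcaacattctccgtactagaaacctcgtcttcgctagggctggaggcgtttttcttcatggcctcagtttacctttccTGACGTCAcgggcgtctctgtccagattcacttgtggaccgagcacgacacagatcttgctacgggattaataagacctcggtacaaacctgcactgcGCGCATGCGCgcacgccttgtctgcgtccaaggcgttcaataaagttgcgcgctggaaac
Ndufb2: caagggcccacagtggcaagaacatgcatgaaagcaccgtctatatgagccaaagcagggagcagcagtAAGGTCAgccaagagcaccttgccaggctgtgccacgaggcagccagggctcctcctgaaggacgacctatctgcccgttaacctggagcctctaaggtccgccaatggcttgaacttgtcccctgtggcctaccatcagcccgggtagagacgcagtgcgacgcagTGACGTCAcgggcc
Ndufa6 (chr15:82354292-82354541, minus strand) came next to Ndufa9 in fold and holds the NRF1 core, and Ndufaf1 (chr2:119662835-119663084, minus strand) had the highest fold among assembly factors.
Ndufa6: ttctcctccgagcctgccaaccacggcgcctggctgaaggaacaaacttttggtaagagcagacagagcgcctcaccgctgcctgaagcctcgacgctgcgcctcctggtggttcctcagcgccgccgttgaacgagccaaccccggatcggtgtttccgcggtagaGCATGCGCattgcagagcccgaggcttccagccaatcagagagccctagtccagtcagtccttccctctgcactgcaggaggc
Ndufaf1: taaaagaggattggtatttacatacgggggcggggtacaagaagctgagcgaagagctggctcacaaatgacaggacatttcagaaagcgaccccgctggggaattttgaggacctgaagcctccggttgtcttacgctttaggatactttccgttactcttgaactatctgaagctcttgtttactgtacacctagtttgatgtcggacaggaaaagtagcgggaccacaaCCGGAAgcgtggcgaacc
Ndufa8 (chr2:36049339-36049588, minus strand) had no series-wide peak at a gene end, and its window ends in the NRF1 core.
Ndufa8: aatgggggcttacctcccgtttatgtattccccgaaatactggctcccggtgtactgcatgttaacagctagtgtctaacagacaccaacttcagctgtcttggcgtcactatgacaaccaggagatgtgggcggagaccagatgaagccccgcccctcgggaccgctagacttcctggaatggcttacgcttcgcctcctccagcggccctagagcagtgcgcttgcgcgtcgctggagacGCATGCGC

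Of 49 complex I genes, 37 (75.5%) had a gene-end peak in the series-wide list, against 34.9% of all protein-coding genes. Either end counted, because the annotation table gives spans without strand. In the replicate 1 list 46 of 49 had such a peak, against a background of 48.2%, and in the replicate 2 list again 46 of 49, against 50.2%. Both replicates had one at 45 members (91.8%), and 47 members had one in at least one of the 3 lists. In the gene body with 10 kb on each side, 43 members (87.8%) had a series-wide peak, against 61% of all genes, and 47 and 48 members had one in the replicate lists, against 72.3% and 74.1%. Peaks at a gene end were thus present at complex I genes at more than the background share in each of the 3 lists. No test was made of the difference, since the members are related genes and not replicates of a condition.

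**Figure D1:**
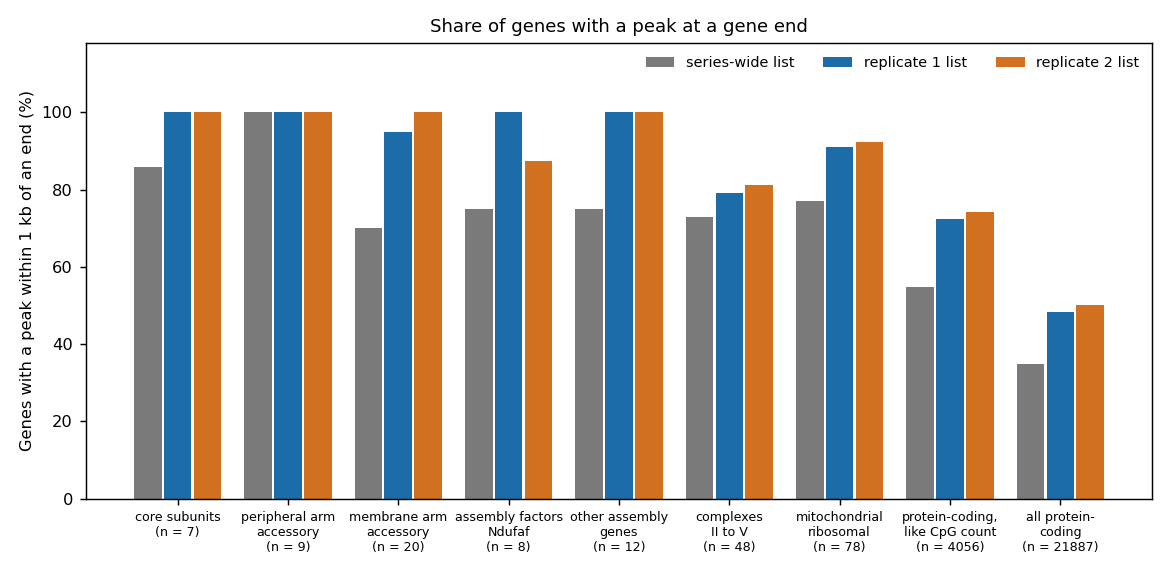
Share of genes with a peak within 1 kb of a gene end (vertical axis, percent) in the series-wide and both replicate lists, for groups of complex I genes, other gene families and all protein-coding genes, with the number of genes under each group. All groups of complex I genes shown stand above the 34.9% of all protein-coding genes in the series-wide list, and like CpG count means genes whose promoter CpG count lies in the middle 50% of that of complex I genes.

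The strength of the peaks was compared next. The median series-wide fold at the 37 members was 14.2, with a range of 8.42 to 48.8, against a median of 13.3 over the 7631 protein-coding genes with a peak at an end. Over genes with a gene-end peak in a replicate's own list, the median was 11 at complex I genes against 10 at all genes in replicate 1, and 12.4 against 10.2 in replicate 2. The median was higher at complex I genes in both replicates, and the difference was not tested. A fold of 20 or more was reached by 6 members, 16.2% of those with a peak, against 19.0% over all genes with a peak. By rank among the 7631 genes Ndufa9 was number 79, followed in the family by Ndufa6 (823), Ndufs5 (905), Ndufa13 (1089), Ndufaf1 (1299) and Ndufa11 (1413). At 37 members with a series-wide peak, the summits of the replicates lay a median of 31 bp apart, and at most 288 bp.

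Among the 7 core subunit genes, 6 had a series-wide peak at a gene end and all 7 had one in each replicate. Ndufs1, the largest iron-sulfur subunit, had folds of 16.5 and 15.1 in replicates 1 and 2 (15.8 ± 1.01, SD, n = 2). Ndufs7, which carries the iron-sulfur cluster that hands electrons to ubiquinone, had 11.5 and 17.7 (14.6 ± 4.41, SD, n = 2). The order of the replicates was opposite in Ndufs1 and Ndufs7, and the spread of Ndufs7 was larger than the difference between their means. Ndufs8, another iron-sulfur subunit, had 14.5 and 12 (13.2 ± 1.79, SD, n = 2). Ndufs3, a core subunit beside the ubiquinone site, had 11 and 12.9 (11.9 ± 1.31, SD, n = 2). Ndufv1, which binds NADH and the flavin, had 11 and 12 (11.5 ± 0.684, SD, n = 2). These lower core genes differed from each other by less than the spread of Ndufs8. Ndufv2, an iron-sulfur subunit next to Ndufv1, was the core gene without a series-wide peak, with 9.50 and 6.65 (8.07 ± 2.02, SD, n = 2) in the replicate lists.

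All 9 genes of accessory subunits of the peripheral arm had a series-wide peak at a gene end, and all 9 had one in each replicate. Ndufa9, a nucleotide-binding subunit near the ubiquinone site, had folds of 48.0 and 48.8 in replicates 1 and 2 (48.4 ± 0.535, SD, n = 2). Its peak covered the start of the gene on chromosome 6 (126848805 to 126849570), with the summit 48 bp upstream of the start, on the sequence printed above. Its fold in either replicate was more than that of any other member at a gene end. Ndufa6, which docks a copy of the acyl carrier protein on the complex, had 21.0 and 25.3 (23.1 ± 3.02, SD, n = 2), with the summit 228 bp upstream. Ndufs4, a small subunit whose loss impairs complex I in mouse and human, had 15.5 and 19.9 (17.7 ± 3.14, SD, n = 2). Ndufa12, the mature partner that replaces the assembly factor Ndufaf2, had 12.5 and 17.7 (15.1 ± 3.70, SD, n = 2). These 3 genes were lower in replicate 1 than in replicate 2. Ndufa5 had 15.0 and 16.4 (15.7 ± 0.990, SD, n = 2). Ndufa2, a small subunit with a thioredoxin-like fold, had 12.5 and 13.3 (12.9 ± 0.564, SD, n = 2). The other members of the group were lower. Ndufa7 had 11.2 ± 1.04, Ndufv3 had 9.96 ± 2.18 and Ndufs6, a zinc-binding subunit, had 7.71 ± 1.01 (SD, n = 2 each). Ndufs6, at 7.0 and 8.42, was the lowest of the 37 members with a series-wide peak.

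The peak given for Ndufs4 lies at the far end of the gene, 99385 bp from its start. Another series-wide peak covered the start of Ndufs4 (chromosome 13, 114387620 to 114388163, 12-fold), with its summit 48 bp inside the gene, and had no counterpart in either replicate list. The replicate lists end before it, at 114344540 and 114363886 on this chromosome, while the series-wide list runs on to 120321688 with 52 further peaks. The replicate lists thus hold no peak of any gene in this stretch. The replicate lists also end before the series-wide list on chromosomes 14 to 19, X and Y. No other complex I gene lay past the last replicate peak of its chromosome.

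Of the 20 genes of accessory subunits of the membrane arm, 14 had a series-wide peak at a gene end, 19 had one in replicate 1 and 20 in replicate 2. Ndufs5, on the intermembrane space side of the complex, had folds of 19.5 and 24.4 (21.9 ± 3.45, SD, n = 2). Ndufa13, also known as GRIM-19, had 22.5 and 15.1 (18.8 ± 5.25, SD, n = 2) at a peak whose summit lay 1286 bp upstream of its start and which overlapped the neighbouring gene Tssk6. This start is that of the promoter window (69902020), and the gene model extends beyond it, to 69902558, nearer to the summit at 69903306. Another peak, over the start of Ndufa13, had 11 and 13.7 (12.4 ± 1.94, SD, n = 2). The ranges of both peaks of Ndufa13 did not overlap, and the one farther from its start was higher. Ndufa11, which contacts complex III in respiratory supercomplexes, had 20.0 and 18.6 (19.3 ± 0.979, SD, n = 2), with the summit 3 bp inside the gene. Ndufb5 had 16 and 16.8 (16.4 ± 0.596, SD, n = 2). Ndufc2 had 16.5 and 13.3 (14.9 ± 2.26, SD, n = 2). The replicates were close in Ndufa11 and Ndufb5.

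Ndufa10, a subunit related to nucleoside kinases, had 2 series-wide peaks at its ends. The peak at the start (chromosome 1, 92473529 to 92474154) had 9.0 and 16 (12.5 ± 4.92, SD, n = 2). The peak at the far end, with its summit 35890 bp from the start, had 16 and 8.42 (12.2 ± 5.36, SD, n = 2). The replicates thus ranked the ends of Ndufa10 in opposite order, and their means differed by far less than the spread. The 8 other membrane arm genes with a series-wide peak had lower means: Ndufb3 had 11.9 ± 1.98, Ndufb7 11.8 ± 3.31, Ndufb2 11.3 ± 1.63 and Ndufb8 10.1 ± 0.805 (SD, n = 2 each). Ndufb6 had 9.35 ± 1.20, Ndufb1 9.24 ± 1.78, Ndufb11 8.60 ± 2.26 and Ndufc1 8.38 ± 1.95 (SD, n = 2 each).

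The 6 membrane arm genes without a series-wide peak at a gene end were found in the replicate lists only. Ndufb10 and Ndufa3 each had 6.50 in replicate 1 and 13.3 in replicate 2 (9.90 ± 4.81, SD, n = 2), and with Ndufa10 they were the members whose replicates differed most relative to their mean. Ndufb9 had 8.50 and 7.09. Ndufa8, on the intermembrane space side, had 6.50 and 7.54, and Ndufb4 had 6.50 and 6.65. None of these values of Ndufb9, Ndufa8 and Ndufb4 exceeded the median fold of its replicate list, 8.50 in replicate 1 and 7.98 in replicate 2. Ndufa1, a single-pass membrane subunit encoded on the X chromosome, had no peak in replicate 1 and 6.65 in replicate 2. The median of the mean replicate folds was 10.1 for the 19 membrane arm genes with a value in both replicates, 15.1 for the 9 peripheral arm accessory genes and 13.2 for the 7 core genes. The accessory groups overlapped widely, at 6.57 to 21.9 in the membrane arm and 7.71 to 48.4 in the peripheral arm.

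Ndufab1, the mitochondrial acyl carrier protein, had 11.5 and 8.87 (10.2 ± 1.86, SD, n = 2). Ndufa4, named as a complex I gene but known to associate with complex IV, had 17.0 and 18.6 (17.8 ± 1.14, SD, n = 2). Its relative Ndufa4l2, known for its induction by hypoxia, had no series-wide peak at a gene end, with 6.50 and 5.32 in the replicates. Ndufb4b and Ndufb4c, single short gene models of 471 bp and 485 bp, had no peak at an end in any list. They resemble Ndufb4, and how reads of near-identical copies were assigned is not given in the sources used here, so their lack of peaks is uncertain.

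**Figure D2:**
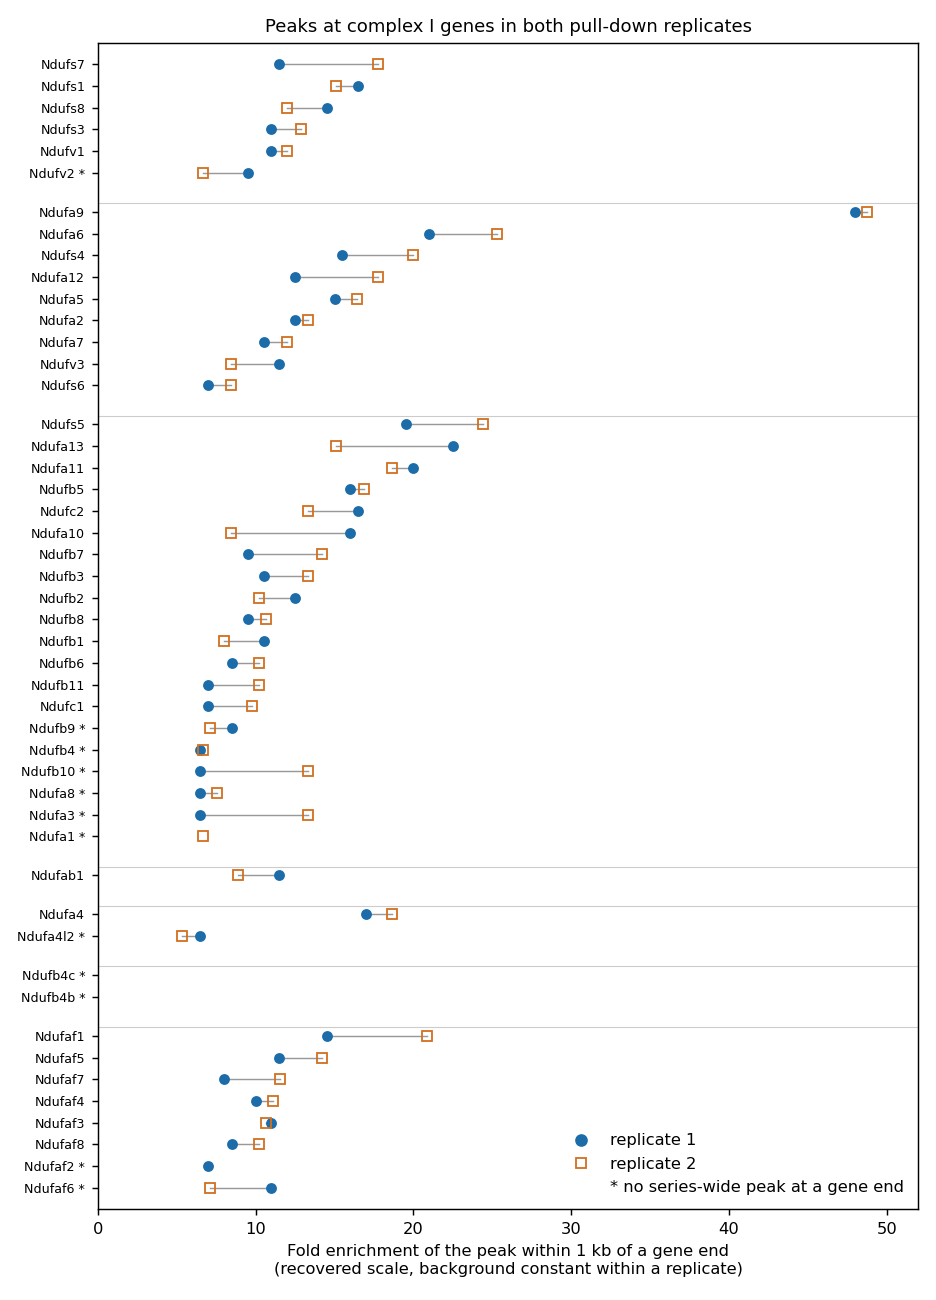
Fold enrichment (horizontal axis, over a constant background) of the gene-end peak of complex I genes in replicate 1 (filled circles) and replicate 2 (open squares), joined by a line; genes are grouped from top to bottom as core, peripheral arm, membrane arm, Ndufab1, Ndufa4 and Ndufa4l2, Ndufb4 copies and assembly factors. Ndufa9 stands alone at 48.0 and 48.8, and the starred genes, which lack a series-wide peak at a gene end, reach at most 13.3 or have no point.

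Among the 8 assembly factor genes, 6 had a series-wide peak at a gene end, 8 had one in replicate 1 and 7 in replicate 2. Ndufaf1, which works with Ecsit and Acad9 on the membrane arm, had folds of 14.5 and 20.8 (17.7 ± 4.48, SD, n = 2), with the summit 38 bp upstream of its start. Ndufaf5, which hydroxylates an arginine of Ndufs7, had 11.5 and 14.2 (12.8 ± 1.90, SD, n = 2). Ndufaf3 and Ndufaf4, partners in building the part of the peripheral arm that binds ubiquinone, had 11 and 10.6 (10.8 ± 0.256, SD, n = 2) and 10.0003 and 11.1 (10.5 ± 0.764, SD, n = 2). The last pair differed by less than the spread of Ndufaf4. Ndufaf7, a protein arginine methyltransferase, had 8.0 and 11.5 (9.76 ± 2.49, SD, n = 2). Ndufaf8, the partner of Ndufaf5, had 8.50 and 10.2 (9.35 ± 1.20, SD, n = 2). Ndufaf6, needed for early assembly, had no series-wide peak but 11 and 7.09 in the replicates. Ndufaf2, which is replaced by Ndufa12 at a late step, had 7.0 in replicate 1 and none in replicate 2. Both genes thus had weak or uneven gene-end peaks.

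Subunit genes were next set beside assembly factor genes. A series-wide peak at a gene end was found at 30 of 37 subunit genes (81.1%) and 6 of 8 assembly factor genes (75%). With Ndufb4b and Ndufb4c, which were set apart after seeing the data, the subunit count was 30 of 39 (76.9%). The median series-wide fold was 14.3 at the subunit genes and 11.3 at the assembly factor genes, and within the subunits it was 15.5 at core, 16.4 at peripheral arm and 13.7 at membrane arm genes. The fold ranges of subunits (8.42 to 48.8) and assembly factors (10.2 to 20.8) overlapped, and the difference was not tested. Assembly genes not named Nduf gave a similar count, with a series-wide peak at 9 of the 12 that matched the annotation from a list of 13, and a peak in each replicate at 12 of 12. Dmac2, needed to build the far part of the membrane arm, had 35.5 and 42.1 (38.8 ± 4.67, SD, n = 2) at the stronger of its 2 gene-end peaks. That peak (chromosome 7, 25626263 to 25627083) lay outside the gene span, which ends at 25625550. Foxred1 had 31.0 and 21.3 (26.1 ± 6.88, SD, n = 2). Lyrm2, Tmem186 and Tmem70 had no series-wide peak. The remaining 7 ranged in series-wide fold from 9.0 at Nubpl, which delivers iron-sulfur clusters, to 12.5 at Acad9 and Tmem126a, with Ecsit, Dmac1, Timmdc1 and Tmem126b between them.

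Other mitochondrial gene families were counted in the same way. Genes of complexes II to V had a series-wide peak at a gene end at 35 of 48 (72.9%), and genes of mitochondrial ribosomal proteins at 60 of 78 (76.9%). In the lists of replicates 1 and 2, complexes II to V had 38 and 39 of 48 (79.2% and 81.2%) and mitochondrial ribosomal proteins 71 and 72 of 78 (91.0% and 92.3%), against 93.9% of complex I genes in each. The median series-wide fold was 12.4 for complexes II to V and 16 for mitochondrial ribosomal proteins, on either side of the 14.2 of complex I. The share of complex I genes, 75.5%, lay between those of these families in the series-wide list and above both in the replicate lists. The replicate lists end early on several chromosomes, as given above for Ndufs4, and genes past these ends can have no replicate peak. A value in both replicates under the series-wide peak was held by 32 of 35 genes of complexes II to V. The counts were 59 of 60 for mitochondrial ribosomal proteins and 37 of 37 for complex I.

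Replicate 2 had the higher fold at 25 of the 37 complex I genes with a series-wide peak (67.6%), with a median ratio of replicate 2 to replicate 1 of 1.11. Over all 7509 protein-coding genes with a value in both replicates under such a peak, replicate 2 was higher at 51.8%, with a median ratio of 1.01. Folds were not scaled between replicates. By group, replicate 2 was higher at 8 of 9 peripheral arm genes, 8 of 14 membrane arm genes, 3 of 6 core genes and 5 of 6 assembly factor genes.

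The peaks of complex I genes lay close to the annotated starts. A start with strand was known for 42 members, of which 34 had a series-wide peak at a gene end. The summit of the strongest such peak lay a median of 65 bp from the nearest start, against 160 bp over 6219 protein-coding genes with a peak. It lay within 100 bp of a start at 23 members (67.6%), against 38.7%, and the peak covered the start at 31 (91.2%), against 72.6%. The exceptions were Ndufs4 and Ndufa10, whose strongest peaks lay at the far end, and Ndufa13, whose strongest peak lay in Tssk6. The summit was upstream of the start at 23 members and downstream at 11. The peaks themselves were 300 bp to 1118 bp wide, with a median of 700 bp against 642 bp over all genes with a peak. The narrowest was at Ndufc2 and the widest at Ndufa4.

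**Figure D3:**
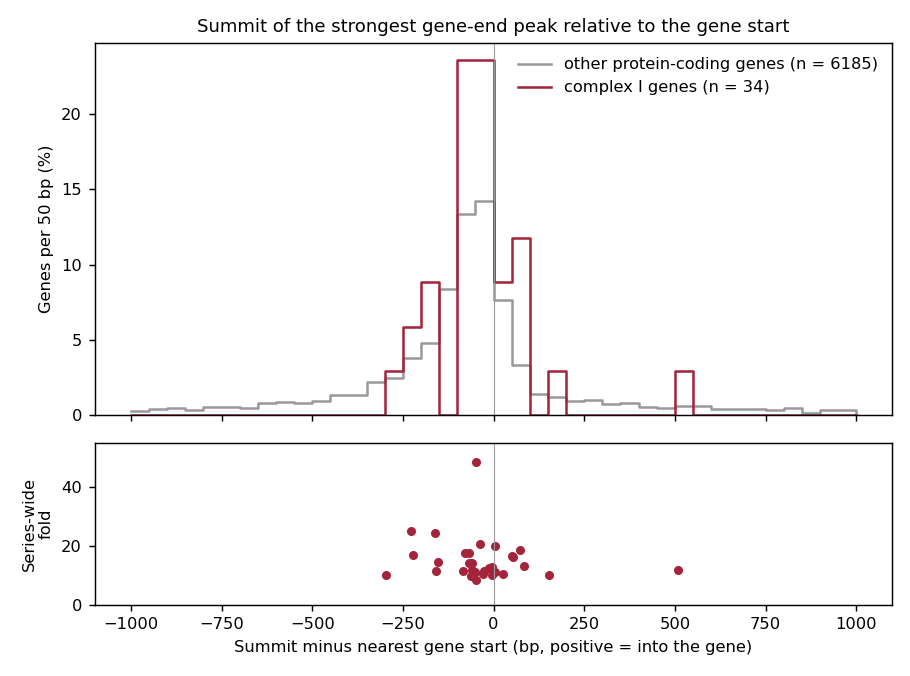
Upper panel: share of genes (vertical axis, percent per 50 bp) by distance of the summit of the strongest gene-end peak from the nearest annotated start (horizontal axis, bp, positive into the gene), for complex I genes and other protein-coding genes; lower panel: series-wide fold of each complex I gene at its distance. Summits of complex I genes crowd near the start, with a median distance of 65 bp against 160 bp over all genes; Ndufs4, Ndufa10 and Ndufa13 lie beyond the axis.

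Promoters of complex I genes were rich in CpG, a C followed by a G, which marks most promoters of widely expressed genes. The 300 bases around the start (250 before and 50 after) held a median of 20.5 CpG at the 42 members, against 15 over 17492 protein-coding genes. The share of genes with a peak rose with this count over all genes, from 7.40% at 0 to 4 CpG to 57.6% at 20 to 29, and was 51.3% at 30 or more. Genes with a CpG count in the middle 50% of that of complex I genes had a series-wide peak at 2217 of 4056 (54.7%), while the complex I genes in the same range had one at 17 of 20 (85%). The background share thus rose from 34.9% to 54.7% when genes of similar CpG count were taken, and the members stood above both. In the stratum of 20 to 29 CpG 20 of 23 members had a peak, in that of 15 to 19 it was 8 of 10, and in that of 10 to 14 it was 5 of 6, against 57.6%, 49.9% and 39.3% of all genes. Of the other 3 members, 1 of 2 had a peak at 5 to 9 CpG and 0 of 1 at 30 or more. The median series-wide fold did not differ in 1 direction across the strata. At 20 to 29 CpG it was 12.4 at the members, below the 13.3 of all genes with a peak. It was higher at the members at 15 to 19 CpG (15.5 against 13.5) and at 10 to 14 CpG (14.5 against 13.3). In the CpG-matched genes the median summit lay 115 bp from a start and 46.4% lay within 100 bp, between the values of all genes and of complex I genes. Complex I genes were short, with a median span of 7690 bp against 17169 bp, and genes in the middle 50% of their length (4866 bp to 13745 bp) had a series-wide peak at an end in 38.4%.

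**Figure D4:**
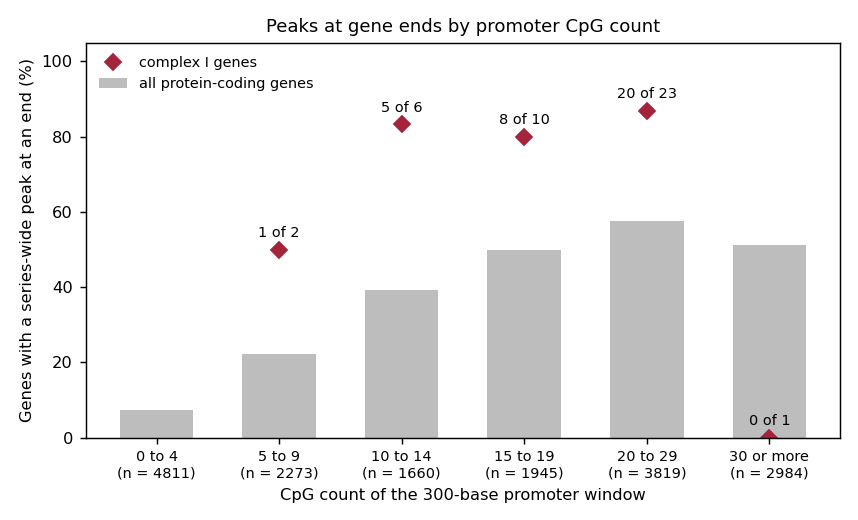
Share of protein-coding genes with a series-wide peak within 1 kb of an end (grey bars, percent) by CpG count of the 300-base promoter window, with the share of complex I genes as diamonds and their counts beside them. In the strata of 10 to 14, 15 to 19 and 20 to 29 CpG, which hold most members, the diamonds lie above the bars.

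Many complex I genes share their promoter region with a neighbour. At 19 of the 37 members with a gene-end peak (51.4%) the same peak also lay within 1 kb of an end of another protein-coding gene, against 30.5% over all 7631 genes with such a peak. At these 19 genes the peak cannot be assigned to 1 gene of the pair. In 12 of the 19 the genes start head to head on opposite strands. The pairs were Ndufa7 with Rps28 (starts 10 bp apart), Ndufs3 with Kbtbd4 (19 bp), Ndufa11 with Vmac (63 bp), Ndufb3 with Fam126b (64 bp), Ndufaf5 with Esf1 (88 bp) and Ndufb11 with Rbm10 (116 bp). The others were Ndufa13 with Tssk6 (164 bp), Ndufaf8 with Tepsin (203 bp), Ndufb1 with Cpsf2 (236 bp), Ndufb5 with Mrpl47 (308 bp), Ndufa4 with Phf14 (379 bp) and Ndufa5 with Asb15 (454 bp). Rps28 encodes a cytosolic ribosomal protein and Mrpl47 a mitochondrial one. In 4 pairs the arrangement was another one, with Aldh3b1 at Ndufs8, Wdr4 at Ndufv3, Mrpl36 at Ndufs6 and Dalrd3 at Ndufaf3. In 3 pairs the strand of a gene was not known, so whether they are head to head was not determined. These were Eef1b2 at Ndufs1, Ik at Ndufa2 and Cebpz at Ndufaf7. Among all 42 members with a known start, 15 (35.7%) had the start of another gene on the opposite strand within 1 kb, against 9.61% of all genes. Of these 15 members 12 had a series-wide peak at a gene end, and of the 27 others 22, against 70.0% and 31.9% of all genes of each kind. The share of members with a peak was therefore much the same with and without an opposed neighbour.

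Motif matches in the 300-base windows were a description of the printed letters, not of sites in use. Sequence under peaks, or parts of peaks, outside these windows was not searched. The composite element TGATGCAA was in 0 of 42 complex I windows and 1.01% of all windows, and the relaxed form TGATGNAA, which contains it, in 0 of 42 and 4.13%. Over all genes with a series-wide peak at an end the shares were 0.804% and 2.91%. At such low shares over all windows a count of 0 of 42 is little different from the background for either form. The full cAMP response element TGACGTCA was in 3 complex I windows (7.14%), against 2.54% of all windows and 4.15% of windows of genes with a peak. Its centre lay 2.5 bp from the peak summit in Ndufb2, 5.5 bp from the summit of the start peak in Ndufa10 and 157.5 bp from the summit in Ndufa11. The site of estrogen-related receptors, AAGGTCA, was in 3 (7.14%; Ndufb2, Ndufb4 and Ndufs5), against 4.73% of all windows and 3.65% of windows of genes with a peak. The NRF1 core GCATGCGC was in 5 (11.9%; Ndufa6, Ndufa8, Ndufa11, Ndufaf4 and Ndufaf5). It was in 3.94% of all windows and 5.47% of windows of genes with a peak. No motif share was taken at like CpG count. The ETS core CCGGAA was in 12 (28.6%), against 20.9% of all windows. All 12 were among the 34 members with a peak (35.3%), and over all genes with a peak the share was 33.7%.

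The YY1 element AAGATGGC was in 8 of 42 complex I windows (19.0%), against 3.57% of all windows and 5.76% of windows of genes with a peak. In all 8 it was written as shown on the gene's strand and lay after the start, which held for 259 (41.5%) of the 624 genes with a match. The element itself contains ATG, the letters of a translation start. Whether the matches overlap the translation starts of these genes was not examined, so their strand and position cannot be read as a trait of YY1 sites. The matches are printed with up to 8 bases on each side, the element in capitals, because they lie just inside the genes and are not on the lines above; the positions of the first base of the element, counted from 1 at the start, ran from 11 in Ndufaf8 to 39 in Ndufb8.
Ndufa3 (chr7:3617387-3617410, plus strand): ccaagaacAAGATGGCcgggagta
Ndufa9 (chr6:126849100-126849123, minus strand): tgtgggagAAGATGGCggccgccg
Ndufaf8 (chr11:120098936-120098959, plus strand): cagggcccAAGATGGCggcgccct
Ndufb8 (chr19:44555393-44555412, minus strand): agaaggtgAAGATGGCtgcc
Ndufc1 (chr3:51408918-51408941, minus strand): tgcggaacAAGATGGCgccgtccg
Ndufs4 (chr13:114388045-114388067, minus strand): cctacaggAAGATGGCggcggtc
Ndufs6 (chr13:73328434-73328457, minus strand): tcaccggcAAGATGGCggcggtgc
Ndufs7 (chr10:80249465-80249488, plus strand): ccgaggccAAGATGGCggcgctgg
Ndufa3 is the member of these 8 without a series-wide peak at a gene end. The distance from the summit to the centre of the element was 16.5 bp in Ndufb8, 9.5 bp in Ndufs4 (for the peak at its start), and 80.5 bp to 309.5 bp in Ndufa9, Ndufs6, Ndufc1, Ndufs7 and Ndufaf8.

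Series-wide peaks in and around complex I genes lay both at gene ends and away from them. The gene bodies with 10 kb held 98 peaks, of which 42 lay within 1 kb of an end of the member and 56 did not. This split was not counted over all genes. There the same windows held 38415 peaks, counted once per gene, and 7631 genes had a gene-end peak. Beside these stand 98 peaks and 37 genes for complex I. Of the 56, 10 lay inside 7 members and 46 outside the gene, 22 of them within 1 kb of an end of another gene. The median fold was 14 at the ends and 13.4 elsewhere, while folds of 20 or more were seen at 6 peaks at ends and 11 elsewhere. At least 3 peaks were found at 13 members (26.5%), against 22.4% of all genes.

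Strong peaks also lay inside genes, away from their ends. A peak inside Ndufa7 (chromosome 17, 33828907 to 33829383), 4493 bp past the start, had 32.5 and 37.2 (34.9 ± 3.35, SD, n = 2), against 10.5 and 12 at the start that Ndufa7 shares with Rps28. A peak inside Ndufa4l2 (chromosome 10, 127512892 to 127513243) had 30.0 and 27.5 (28.7 ± 1.78, SD, n = 2), although the ends of that gene had no series-wide peak. A peak inside Ndufaf2 (chromosome 13, 108151861 to 108152111) had 24.0 and 18.6 (21.3 ± 3.81, SD, n = 2), 6647 bp past a start with 7.0 in replicate 1 alone. In Ndufa7 and Ndufa4l2 the internal peak exceeded the gene-end peak in both replicates, and in Ndufaf2 it did so in replicate 1, the one with a gene-end peak. The annotation table holds no exons, so whether the peaks are exonic or intronic was not determined. Further internal peaks lay in Ndufs4, Ndufa7, Ndufa10 and Ndufaf5, with series-wide folds of 8.87 to 16.8.

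Strong peaks outside the genes mostly lay in neighbours. Ndufs7 had 2 peaks in Dazap1, of 32.6 ± 1.55 and 23.9 ± 1.95 (SD, n = 2 each), the lower of which also overlapped Gamt. Ndufa5 had 5 peaks in its window, 3 of them inside Asb15, the strongest with 22.2 ± 1.89 (SD, n = 2). Ndufb7 had the most, with 6 peaks, of which 5 lay in Tecr and had series-wide folds of 9.0 to 17.0. A peak at position -8450 bp from the start of Ndufa6 overlapped no protein-coding gene and had 23.0 and 19.9 (21.5 ± 2.16, SD, n = 2), close to the 21.0 and 25.3 of the peak at its start. Peaks at an end of Sec31b near Ndufb8 (20.9 ± 0.548), of Shmt2 near Ndufa4l2 (18.0 ± 3.53) and of Prpf31 and Tfpt near Ndufa3 (21.2 ± 1.81; SD, n = 2 each) belong to the windows of complex I genes by distance only. Ndufs1, Ndufv1, Ndufa6, Ndufs4, Ndufa10 and Ndufs7 had 4 peaks each in the body with 10 kb, as had Ndufa7, and Ndufs6, Ndufb8, Ndufb10 and Ndufaf3 had 3 each. Ndufv2 and Ndufb10 had no series-wide peak at their ends but peaks near by of 13.4 ± 0.810 at an end of Washc1 and 13.5 ± 7.13 in Rpl3l (SD, n = 2 each). Ndufb4c had 2 peaks in Mroh5, and the 6 members without any series-wide peak in the window were Ndufb9, Ndufb4, Ndufa8, Ndufa1, Ndufb4b and Ndufaf6.

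**Figure D5:**
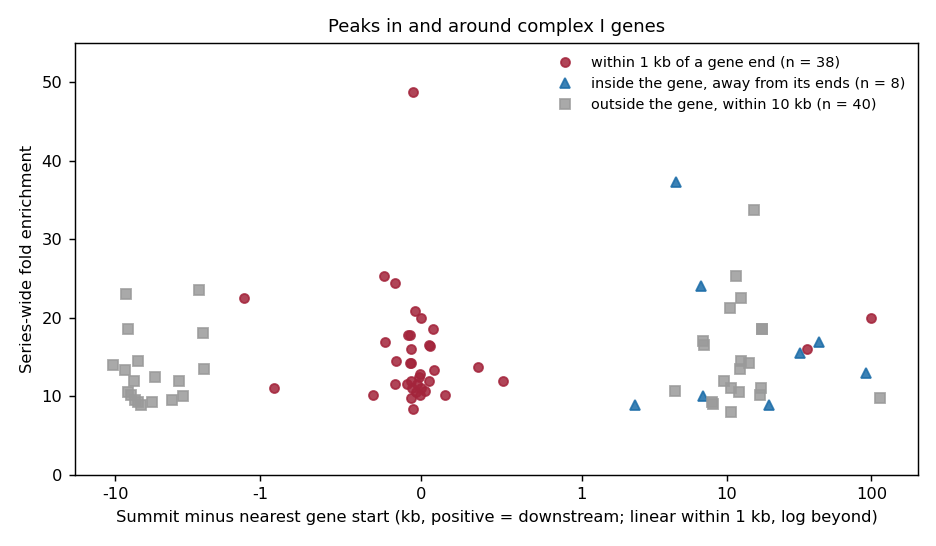
Series-wide fold (vertical axis) of each peak in complex I gene bodies with 10 kb, by distance of its summit from the nearest annotated start (horizontal axis, kb, linear within 1 kb and logarithmic beyond), for genes with a known start. Peaks within 1 kb of a gene end (circles) crowd at the start, the highest at Ndufa9, and the highest triangle, a peak inside the gene away from its ends, is that of Ndufa7; genes whose strand is not known are not drawn.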

How the data were processed

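Peaks of 2 ATF4 pull-down samples were analysed; 2 input samples were not. Per the submitters' processing notes, Bowtie2, MACS2, deepTools and mm10 were used; roles, versions and thresholds are not given in the sources used here. The series-wide list holds the authors' deposited fold enrichment (a ratio) per peak. The replicate lists hold a deposited −log10 value of a p-value or q-value, which of the pair was not settled. Peaks with identical coordinates in a replicate and the series-wide list (17420 and 21047) gave the fold that belongs to each −log10 value, in steps of 0.500 and 0.443, over backgrounds of 1.00 and 1.26. Of 141 and 153 distinct values 135 and 139 were matched, 4 and 5 were continued below the matched range and 2 and 9 were interpolated. Folds were not scaled between replicates. The depth of the samples is unknown. Each replicate fold is a whole number of the steps above, and no counting interval was computed. All positions are 1-based.

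Overlap of at least 1 bp counted, within 1 kb of a gene end or in the body with 10 kb. Genes and promoters came from RefSeq tables of GRCm38.p6 (42 of 49 members had a promoter window); no genome was used here. The lists were complex I role groups, 13 other assembly genes (12 matched), complexes II to V, mitochondrial ribosomal proteins and cell type markers. Members and lists were chosen with earlier results of these data known. The Ndufb4 copies were set apart after seeing the data. By rule, the text gives in full the up to 6 members with the highest series-wide fold in each role group, members without a gene-end peak, the 3 with the most different replicates, members sharing a peak with a neighbour and members with at least 3 peaks. Internal peaks of high fold and the motif examples were chosen after their values were seen. One gene of the family is counted but not reported here by name. With 1 condition there was no group comparison and no test. Overlap counting was tested on simulated peaks. Alternatives were a window of 5 kb, the start only, peak midpoints, the 50% and 20% of peaks with the highest fold, peaks found in both replicates, and each replicate alone. Python 3.11.15, NumPy 2.4.6, pandas 2.3.3 and Matplotlib 3.10.9 were used.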

Additional observations from a re-analysis of the deposited data

How the results depend on the processing

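The count of complex I genes with a series-wide peak within 1 kb of an end stayed within 1.5 times the reported 37 with a window of 5 kb (40), the start only (34 of 42), peak midpoints (36) and peaks found in both replicates (37). It was 46 without replicate 1 and 46 without replicate 2. Leaving out genes past the last replicate peak of their chromosome, an alternative chosen after seeing the data, gave 36 of 48. Counting the Ndufb4 copies as subunits, also chosen after seeing the data, left the subunit count at 30, of 39 genes in place of 37.

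Counts moved when weaker peaks were dropped. With the 50% of peaks with the highest fold, 19 complex I genes, 16 subunit genes and 2 assembly factor genes kept a peak, and 3639 of all protein-coding genes did, which is 38.8% of complex I genes against 16.6% of all. With the 20% of highest fold, at least 21.5, the counts were 4, 4, 0 and 1227, or 8.16% against 5.61%, and the count in the gene body with 10 kb fell to 11. Fewer peaks by construction lower each count. The median highest fold was 16.5 with a window of 5 kb, and 11 to 12.4 in the lists of a single replicate, against the reported 14.2; the replicate lists hold weaker peaks and more genes.

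No paired analysis was possible because the result comes from no test and the columns hold 1 condition.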
